A study of Mus musculus with 12 samples.

Results

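Toll-like receptors (TLRs), the co-receptor Cd14 and the adaptor Myd88 were described as 10 mouse genes: Tlr1, Tlr2, Tlr4, Tlr6, Tlr7, Tlr8, Tlr9, Tlr13, Cd14 and Myd88. They were the rows of the deposited expression matrix whose Ensembl gene identifier carries one of these symbols, 10 of 54104 Ensembl genes. All 10 passed the filter on low values (at least 1 FPKM in at least 3 of 12 libraries), which kept 13610 genes. FPKM scales the fragments of a gene to its length and to the mapped fragments of the library, so levels can be compared between genes per length.

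The libraries were bulk RNA sequencing of mouse cells, 3 for each of the labels Ly6C and Ly6G from spleen and from tumor. By its design text the series compared PMN-MDSCs and M-MDSCs, the granulocyte-like and monocyte-like kinds of myeloid-derived suppressor cell, immature cells that build up when a tumor grows. Sorting usually separates the granulocyte-like kind by surface Ly6G and the monocyte-like kind by Ly6C. The labels gave no sorting gate, tumor model, strain, age, allele or treatment for any group, nor whether the replicates were separate animals.

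TLRs are membrane receptors of the innate immune system that recognise microbial molecules and some molecules released by damaged cells. Tlr1, Tlr2, Tlr4 and Tlr6 act at the cell surface on lipoproteins and lipopolysaccharide, whereas Tlr7, Tlr8, Tlr9 and Tlr13 act in endosomes on nucleic acids. Cd14 is a membrane-anchored or shed protein that hands lipopolysaccharide and lipopeptides to the receptors, and Myd88 carries the signal of all the receptors named here to kinases that activate NF-kappaB. Neutrophils and monocytes are among the cells in which these proteins are best known.

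Measured per library, most of the receptors and Myd88 were lower in the tumor libraries than in the spleen libraries of either label, and Cd14 was higher. Of the 10 genes, 6 fell in Ly6C tumor against Ly6C spleen (Tlr1, Tlr2, Tlr7, Tlr8, Tlr9 and Myd88), beside 30.5% of all genes tested, and 1 rose (Cd14), beside 46.2%. The same 6 fell in Ly6G tumor against Ly6G spleen, beside 24.7% of all genes, and Cd14 rose, beside 51.5%. The median log2 change of the 10 genes was -1.49 for Ly6C and -1.24 for Ly6G, and that of all genes tested was 0.27 and 0.43. Calls were made with limma on log2(FPKM + 1) at a Benjamini-Hochberg adjusted p under 0.05, and changes are given on that scale with their standard error (n = 3 per group), a scale that understates the change of genes near 1 FPKM.

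The direction depended on what the receptors were set against. The 20 genes of a pan-leukocyte list (Ptprc, Coro1a, Laptm5 and others that nearly all white blood cells express) all fell in the tumor libraries of both labels, with medians of -3.66 for Ly6C and -2.68 for Ly6G. Their geometric mean was 128 to 142 FPKM in Ly6C spleen, 134 to 144 in Ly6G spleen, 5.46 to 11.3 in Ly6C tumor and 13.2 to 24.2 in Ly6G tumor. Krt8, a keratin of simple epithelia, was between 0 and 0.263 FPKM in the 6 spleen libraries and between 356 and 770 FPKM in the 6 tumor libraries. Of the list of 7 keratin and epithelial markers it belongs to, Krt8 and Krt18 were tested and both rose. Epcam was 0.136 to 1.08 FPKM in the spleen libraries and 0 to 0.159 in the tumor libraries, Krt5, Krt14 and Krt19 were at 0 in spleen and at most 1.30 in tumor, and Cdh1 was at most 0.332 in any library. The pan-leukocyte genes and both keratins moved with tissue, and their part in the results was not tested. With libraries rescaled to the pan-leukocyte genes, 8 of the 10 genes rose and 0 fell in Ly6C tumor. In Ly6G tumor 7 rose and 1 (Tlr7) fell. But that rescaling called 14538 of 15456 genes higher and 342 lower in Ly6C tumor, and 14171 higher and 348 lower in Ly6G tumor. It also moved the median of all genes to 3.04 and 2.17, so these rises were not particular to the members. In bulk libraries, fewer cells of a type and less RNA per cell cannot be told apart.

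**Figure D1:**
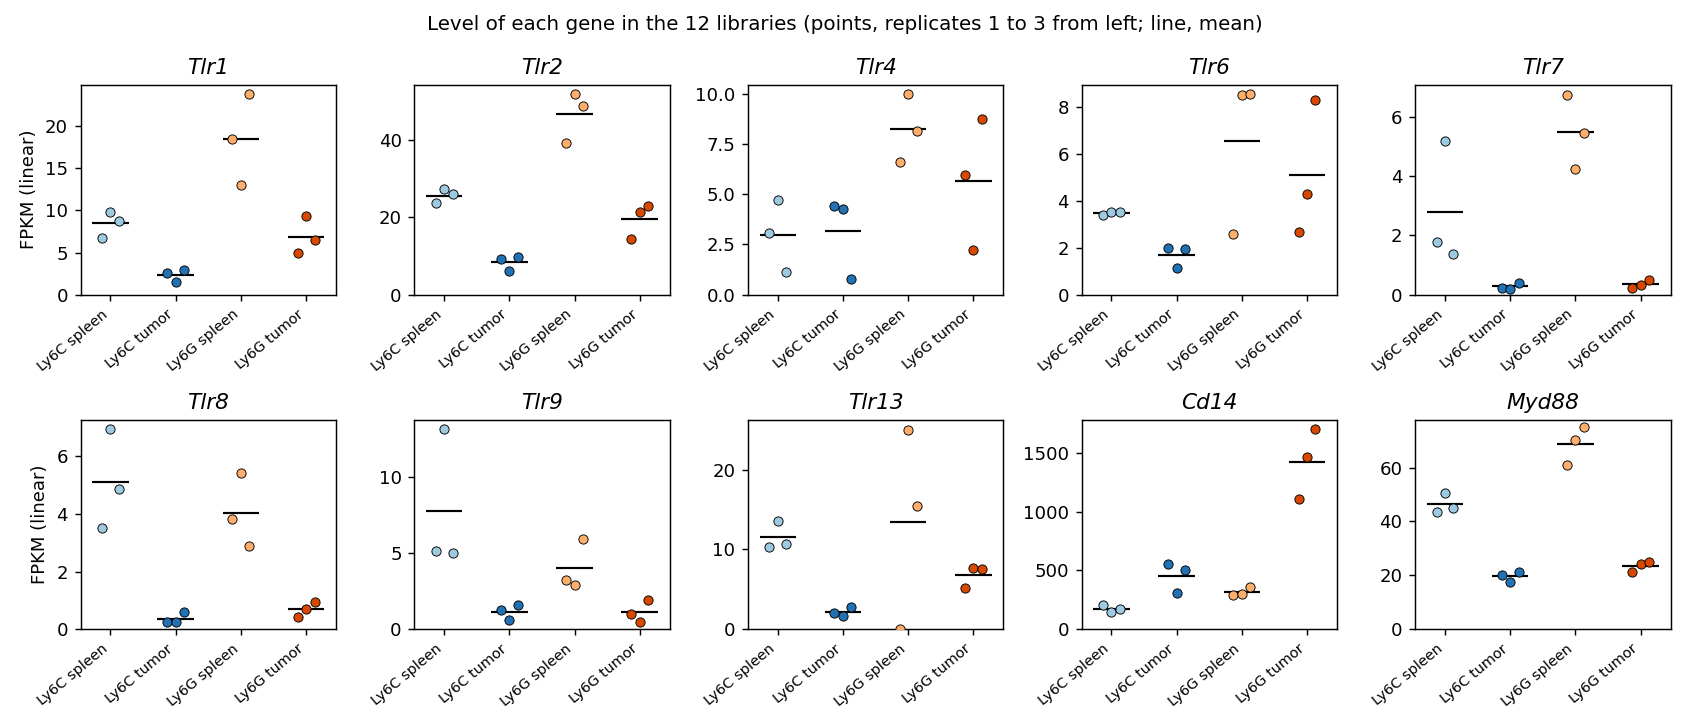
FPKM of the 10 genes in each of the 12 libraries, by label and tissue, with a bar at the mean of each group of 3. Cd14 was 145 to 360 FPKM in the spleen libraries and 309 to 1703 in the tumor libraries, while Tlr7 and Tlr8 lay under 1 FPKM in all 6 tumor libraries; per pan-leukocyte RNA several of these directions turn.

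Tlr2, the shared partner of the lipoprotein-sensing pairs, had the highest level of the 8 receptors in every library. It lies on GRCm38 chromosome 3, 83836272 to 83841767, minus strand. Its FPKM was 23.6, 27.2 and 25.9 in Ly6C spleen replicates 1 to 3, and 9.19, 6.12 and 9.61 in Ly6C tumor. It was 39.2, 51.9 and 48.7 in Ly6G spleen, and 14.5, 21.3 and 22.8 in Ly6G tumor. No 2 of the 4 groups overlapped, in the order Ly6G spleen, Ly6C spleen, Ly6G tumor and Ly6C tumor. The tumor against spleen change was -1.53 ± 0.19 for Ly6C (limma adjusted p = 1.71e-05) and -1.23 ± 0.19 for Ly6G (adjusted p = 0.000112), and 2.15 and 1.53 after rescaling to the pan-leukocyte genes. Between labels, Tlr2 was lower in Ly6C than in Ly6G libraries by -0.83 ± 0.19 in spleen (adjusted p = 0.00783) and by -1.14 ± 0.19 in tumor (adjusted p = 0.00515).

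Tlr1, which pairs with Tlr2 on triacylated lipopeptides, followed the same order of groups (chromosome 5, 64924679 to 64933563, minus strand). Its FPKM was 6.73, 9.88 and 8.78 in Ly6C spleen and 2.52, 1.45 and 2.90 in Ly6C tumor. It was 18.6, 13.1 and 23.8 in Ly6G spleen and 4.95, 9.31 and 6.45 in Ly6G tumor. The tissue groups of each label did not overlap, while Ly6C spleen and Ly6G tumor did. The change was -1.54 ± 0.26 for Ly6C (limma adjusted p = 0.000178) and -1.30 ± 0.26 for Ly6G (adjusted p = 0.000658), and 1.67 and 1.28 after rescaling to the pan-leukocyte genes. Tlr1 was also lower in Ly6C than in Ly6G libraries, by -1.02 ± 0.26 in spleen (adjusted p = 0.0118) and -1.25 ± 0.26 in tumor (adjusted p = 0.0119). The tumor call was lost (adjusted p = 0.0709) without the libraries with the highest mitochondrial share, Ly6C tumor replicate 3 and Ly6G tumor replicate 3. The change was then larger, at -1.41, while the calls among all genes in that comparison went from 1974 to 252.

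Tlr6, which pairs with Tlr2 on diacylated lipopeptides, is the neighbour of Tlr1 (chromosome 5, 64952031 to 64960097, minus strand). Its FPKM was 3.37, 3.52 and 3.51 in Ly6C spleen and 2.0, 1.12 and 1.95 in Ly6C tumor. It was 2.59, 8.50 and 8.56 in Ly6G spleen and 2.66, 4.29 and 8.30 in Ly6G tumor. The Ly6C groups did not overlap, and the Ly6G groups did. The change was -0.75 ± 0.38 for Ly6C (limma adjusted p = 0.0943) and -0.29 ± 0.38 for Ly6G (adjusted p = 0.511), so neither passed. Without Ly6G spleen replicate 1 the changes passed at -0.75 (adjusted p = 0.0292) and -0.76 (adjusted p = 0.0467), as did Ly6C against Ly6G in spleen (-1.09, adjusted p = 0.0281) and in tumor (-1.09, adjusted p = 0.0338). With that library kept, the Ly6C change also passed with quantile normalization (-1.02, adjusted p = 0.0303) and with an equal sum without S100a8 and S100a9 (-1.02, adjusted p = 0.0244). It passed too in a fit of the Ly6C groups alone (-0.75, adjusted p = 0.00295), which leaves out every Ly6G library.

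Tlr1 and Tlr6 share coding sequence, which bears on how far their FPKM can be told apart. Of all 50-base windows of their transcripts, 15.26% of those of Tlr1 and 12.57% of those of Tlr6 occur in another gene (the partner, and for a few windows of Tlr6 also Ctsq), and the remaining 8 genes share none with any other transcript. The longest identical run of the pair is 229 bases, at coding bases 1468 to 1696 of Tlr1 (chr5:64925537-64925765) and 1507 to 1735 of Tlr6 (chr5:64953828-64954056), both on the minus strand of GRCm38 in GENCODE M21. It is printed because a fragment from inside it fits both genes, and how such fragments were counted is not given in the sources used here.
Tlr1 and Tlr6 shared run: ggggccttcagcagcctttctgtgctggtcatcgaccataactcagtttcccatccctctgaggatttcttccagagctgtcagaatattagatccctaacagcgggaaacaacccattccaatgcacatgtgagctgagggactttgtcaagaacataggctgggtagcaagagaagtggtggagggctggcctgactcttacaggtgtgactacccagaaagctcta
The ratio of Tlr1 to Tlr6 FPKM was 2.0, 2.80 and 2.50 in Ly6C spleen, 1.26, 1.30 and 1.49 in Ly6C tumor, 7.16, 1.54 and 2.78 in Ly6G spleen, and 1.86, 2.17 and 0.778 in Ly6G tumor.

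Tlr4, the lipopolysaccharide receptor, varied more within groups than between tissues (chromosome 4, 66827584 to 66930284, plus strand). Its FPKM was 3.08, 4.70 and 1.13 in Ly6C spleen and 4.41, 4.28 and 0.759 in Ly6C tumor. It was 6.59, 9.97 and 8.16 in Ly6G spleen and 5.93, 2.23 and 8.75 in Ly6G tumor. The tissue groups overlapped within each label, and every Ly6C spleen library lay below every Ly6G spleen library. No comparison of Tlr4 passed: 0.01 ± 0.50 for Ly6C tumor against spleen (limma adjusted p = 0.992), -0.60 ± 0.50 for Ly6G (adjusted p = 0.293), -1.31 ± 0.50 for Ly6C against Ly6G in spleen (adjusted p = 0.0694) and -0.71 ± 0.50 in tumor (adjusted p = 0.365). The spleen difference passed without Ly6C tumor replicate 3 (adjusted p = 0.0359) or Ly6G tumor replicate 2 (adjusted p = 0.0498), libraries outside that contrast that enter the shared spread. It also passed in 5 other alternatives: a pseudocount of 5 (-0.75, adjusted p = 0.0467), median-of-ratios factors (-1.55, adjusted p = 0.0338), quantile normalization (-1.42, adjusted p = 0.0472), a fit of the spleen groups alone (adjusted p = 0.0318) and without both libraries of highest mitochondrial share (adjusted p = 0.0282). After rescaling to the pan-leukocyte genes Tlr4 was higher in tumor, by 2.82 for Ly6C and 1.79 for Ly6G.

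Tlr7 and Tlr8 are neighbouring receptors for RNA on chromosome X (167304929 to 167330558 and 167242696 to 167264329, both minus strand). Tlr7 FPKM was 1.78, 5.21 and 1.39 in Ly6C spleen and 0.230, 0.189 and 0.404 in Ly6C tumor. It was 6.77, 4.24 and 5.48 in Ly6G spleen and 0.220, 0.337 and 0.493 in Ly6G tumor. All 6 tumor libraries lay below all 6 spleen libraries. The change was -1.44 ± 0.29 for Ly6C (limma adjusted p = 0.000698) and -2.25 ± 0.29 for Ly6G (adjusted p = 2.08e-05). After rescaling to the pan-leukocyte genes these were 0.32 and -0.61, so Tlr7 in Ly6G is the 1 receptor that stayed lower in tumor on both scales. In spleen Tlr7 was lower in Ly6C than in Ly6G libraries by -0.89 ± 0.29 (adjusted p = 0.0365), although the groups overlapped. That call was lost without any 1 of 5 libraries: Ly6C spleen replicate 1 (adjusted p = 0.122) or 3 (0.124), Ly6C tumor replicate 1 (0.0506), or Ly6G spleen replicate 1 (0.121) or 3 (0.0819). It was also lost in 7 other alternatives, with adjusted p between 0.0588 (replicate block) and 0.755 (rescaling to the pan-leukocyte genes).

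Tlr8 FPKM was 3.51, 6.94 and 4.85 in Ly6C spleen and 0.268, 0.241 and 0.598 in Ly6C tumor. It was 3.84, 5.42 and 2.89 in Ly6G spleen and 0.431, 0.700 and 0.937 in Ly6G tumor. The tissues did not overlap, and the labels overlapped in both tissues. The change was -2.13 ± 0.23 for Ly6C (limma adjusted p = 4.03e-06), the lowest of the 10 genes, and -1.56 ± 0.23 for Ly6G (adjusted p = 5.87e-05), and 0.05 and 0.15 after rescaling to the pan-leukocyte genes. Tlr8 was thus the receptor whose level moved most nearly with the pan-leukocyte genes: the log2 ratio to their geometric mean was -5.19 to -4.26 in Ly6C spleen, -5.35 to -4.24 in Ly6C tumor, -5.59 to -4.73 in Ly6G spleen and -4.95 to -4.69 in Ly6G tumor.

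Tlr9, the receptor for unmethylated CpG DNA, lies on chromosome 9, 106222598 to 106226883, plus strand. Its FPKM was 5.17, 13.2 and 5.01 in Ly6C spleen and 1.27, 0.619 and 1.63 in Ly6C tumor. It was 3.27, 2.94 and 5.93 in Ly6G spleen and 1.004, 0.480 and 1.95 in Ly6G tumor. The tissue groups of each label did not overlap, and the labels overlapped in both tissues. The change was -1.92 ± 0.36 for Ly6C (limma adjusted p = 0.000426) and -1.24 ± 0.36 for Ly6G (adjusted p = 0.00801), and 0.93 and 0.59 after rescaling to the pan-leukocyte genes. Ly6C against Ly6G in spleen was 0.72 ± 0.36 (adjusted p = 0.157).

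Tlr13, which recognises bacterial ribosomal RNA, lies on chromosome X, 106143204 to 106160493, plus strand. Its FPKM was 10.3, 13.6 and 10.7 in Ly6C spleen and 2.01, 1.72 and 2.75 in Ly6C tumor. It was 0.000447, 25 and 15.4 in Ly6G spleen and 5.11, 7.67 and 7.56 in Ly6G tumor. Ly6G spleen replicate 1 stood at almost 0 while the other 11 libraries were at 1.72 or more. At most 2 genes per library were, like this one, under 0.01 FPKM there and at 1 or more in the other 11. With all libraries the change was -1.99 ± 0.89 for Ly6C (limma adjusted p = 0.0581) and 0.03 ± 0.89 for Ly6G (adjusted p = 0.979). Without Ly6G spleen replicate 1 the Ly6C change passed at -1.99 (adjusted p = 7.07e-06), the Ly6G change turned to -1.43 (adjusted p = 0.00026), Ly6C against Ly6G turned from 0.72 to -0.73 in spleen (adjusted p = 0.0457), and the tumor difference passed at -1.30 (adjusted p = 0.00617). The Ly6C change also passed without Ly6G spleen replicate 2 (adjusted p = 0.0299). It passed in a fit of the Ly6C groups alone (adjusted p = 1.82e-05), which leaves out every Ly6G library. With every library kept it passed at a pseudocount of 5, with an equal sum (TPM scale) and with quantile normalization (adjusted p = 0.0378, 0.0384 and 0.0462). An equal sum without S100a8 and S100a9 (adjusted p = 0.0320) and a replicate block (adjusted p = 0.0445) also gave a call. After rescaling to the pan-leukocyte genes the Ly6C change was 1.28.

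Markers of other cells moved with the endosomal receptors. All 8 B cell markers, of a cell type known for Tlr7 and Tlr9, fell in tumor for both labels, and their summed FPKM was 247 to 381 in Ly6C spleen, 737 to 1273 in Ly6G spleen and 5.10 to 8.56 in the tumor libraries. The plasmacytoid dendritic cell markers Siglech and Ccr9 were at or under 0.118 FPKM in every library, Siglech being at 0 in all tumor libraries. Tcf4 also stayed below the filter, and of the 2 tested genes of that list of 5, Bst2 rose (14.7 to 57.0 FPKM in the spleen and 199 to 346 in the tumor libraries) and Irf8 fell (12.2 to 29.8 and 4.23 to 5.39) in both labels. Of the monocyte markers, 6 of 8 fell in Ly6C tumor (summed FPKM 406 to 822 in spleen and 62.8 to 107 in tumor) and 4 of 8 in Ly6G tumor (246 to 285 and 33.0 to 136), where 1 rose, and all 12 neutrophil markers fell in both. Ly6C spleen replicate 2 was the highest of its group for all 8 receptors and Myd88, and the lowest for Cd14. It also had the most Csf1r, the receptor of monocyte growth factor (127 FPKM against 51.2 and 39.1). Mmp8, a neutrophil granule enzyme, was least there (155 against 341 and 349). Its summed FPKM was the highest of its group for monocyte (822), macrophage (329) and B cell markers (381), and the lowest for neutrophil markers (66820). Macrophage markers fell for 3 of 8 in Ly6C tumor and 6 of 8 in Ly6G tumor, T cell markers for all 5 tested and erythroid markers for all 5 in both labels, and none of the 5 conventional dendritic cell markers passed the filter. Of all genes tested, 30.5% fell in Ly6C tumor and 24.7% in Ly6G tumor, so the macrophage count in Ly6C was near that share. Without Ly6C spleen replicate 2 the members called between tissues numbered 7 in each label, as with it. The part of these cells in the receptor results was not tested.

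Cd14 was the most abundant of the 10 genes in every library and the 1 member that rose (chromosome 18, 36725067 to 36726798, minus strand). Its FPKM was 207, 145 and 171 in Ly6C spleen and 555, 309 and 502 in Ly6C tumor. It was 287, 300 and 360 in Ly6G spleen and 1103, 1467 and 1703 in Ly6G tumor. The tissue groups of each label did not overlap, nor did the labels within a tissue, while Ly6C tumor and Ly6G spleen overlapped. The change was 1.35 ± 0.24 for Ly6C (limma adjusted p = 0.000279) and 2.15 ± 0.24 for Ly6G (adjusted p = 6.3e-06), and 5.27 and 5.01 after rescaling to the pan-leukocyte genes, so its direction was the same under each scaling tried. Cd14 was lower in Ly6C than in Ly6G libraries by -0.86 ± 0.24 in spleen (adjusted p = 0.0189) and by -1.66 ± 0.24 in tumor (adjusted p = 0.00237). The spleen call was lost without Ly6C spleen replicate 2 (adjusted p = 0.0643) or Ly6G spleen replicate 3 (adjusted p = 0.0626), without a filter (adjusted p = 0.0537), on the TPM scale (-0.54, adjusted p = 0.0773), with quantile normalization (adjusted p = 0.0560) and after rescaling to the pan-leukocyte genes (adjusted p = 0.352).

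Cd14 and Tlr2 thus moved apart between tissues. Their ratio within a library stays the same when all its values are multiplied by the same factor, though quantile normalization can alter it. The ratio of Cd14 to Tlr2 FPKM was 8.76, 5.31 and 6.61 in Ly6C spleen and 60.4, 50.5 and 52.2 in Ly6C tumor. It was 7.34, 5.78 and 7.38 in Ly6G spleen and 76.3, 68.9 and 74.7 in Ly6G tumor. Every tumor library lay above every spleen library, and within tumor every Ly6G library lay above every Ly6C library. Cd14 over the summed FPKM of the 8 receptors was 1.72 to 3.60 in the spleen libraries, 19.6 to 25.3 in Ly6C tumor and 29.7 to 31.7 in Ly6G tumor. These ratios were given no test, since 3 libraries against 3 cannot go below 0.10 in a two-sided exact permutation test.

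**Figure D2:**
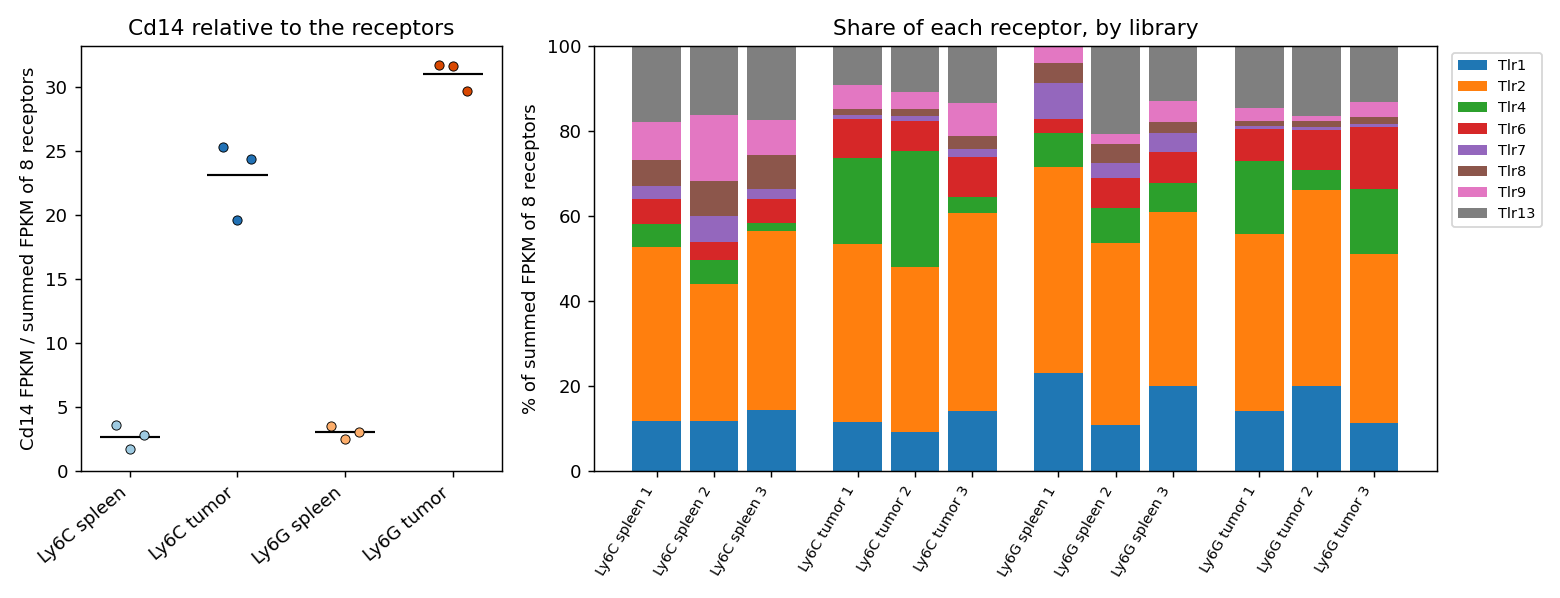
Cd14 FPKM divided by the summed FPKM of the 8 receptors in each of the 12 libraries (linear axis from 0, one panel), and the percent of that sum held by each receptor (bars from 0 to 100, the other panel). The ratio was 1.72 to 3.60 in the spleen libraries and 19.6 to 31.7 in the tumor libraries, and Tlr2 was the largest share in each library.

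The make-up of the receptor pool was described by its sum and by each receptor's share of it, with no test. The summed FPKM of the 8 receptors was 67.7 ± 14.5 in Ly6C spleen, 19.4 ± 3.25 in Ly6C tumor, 107 ± 22.7 in Ly6G spleen and 46.1 ± 11.3 in Ly6G tumor (SD, n = 3). Tlr2 held 38.5% ± 5.40 and 42.5% ± 3.92 of it in Ly6C spleen and tumor, and 44.1% ± 3.92 and 42.5% ± 3.16 in Ly6G spleen and tumor, differences smaller than the spread. Tlr7 held 3.85% ± 2.07 and 1.40% ± 0.486 in the Ly6C groups and 5.50% ± 2.55 and 0.740% ± 0.114 in the Ly6G groups. Tlr8 held 7.42% ± 1.15 and 1.89% ± 0.895, then 3.89% ± 1.27 and 1.46% ± 0.203, with no overlap of tissues. The surface receptors exceeded the endosomal receptors in every library, by 1.17 to 1.79 times in Ly6C spleen, 2.83 to 4.81 times in Ly6C tumor, 2.22 to 4.82 times in Ly6G spleen and 4.04 to 4.23 times in Ly6G tumor. The Ly6C tissues did not overlap in this ratio. The Ly6G tissues did, through Ly6G spleen replicate 1 alone (4.82), the library where Tlr13 stood at almost 0. Ly6G spleen replicates 2 and 3 were at 2.22 and 3.002, below every Ly6G tumor library.

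Myd88, the adaptor, lies on chromosome 9, 119335934 to 119341411, minus strand, where the annotation also places Slc22a14 on the same strand and Acaa1a on the other, so fragments of the overlap are uncertain. Its FPKM was 43.6, 50.6 and 45.1 in Ly6C spleen and 20.1, 17.6 and 21.3 in Ly6C tumor. It was 60.8, 70.2 and 74.9 in Ly6G spleen and 21.3, 24.3 and 24.8 in Ly6G tumor. The groups did not overlap, although the highest Ly6C tumor and the lowest Ly6G tumor library both stood at 21.3, and the spread within a group was 7.92% to 10.5% of its mean, below that of most receptors. The change was -1.2 ± 0.12 for Ly6C (limma adjusted p = 2.38e-06) and -1.51 ± 0.12 for Ly6G (adjusted p = 3.79e-07), and 2.61 and 1.28 after rescaling to the pan-leukocyte genes. Ly6C was below Ly6G in spleen by -0.55 ± 0.12 (adjusted p = 0.00565) and by -0.25 ± 0.12 in tumor, which did not pass (adjusted p = 0.188).

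**Figure D3:**
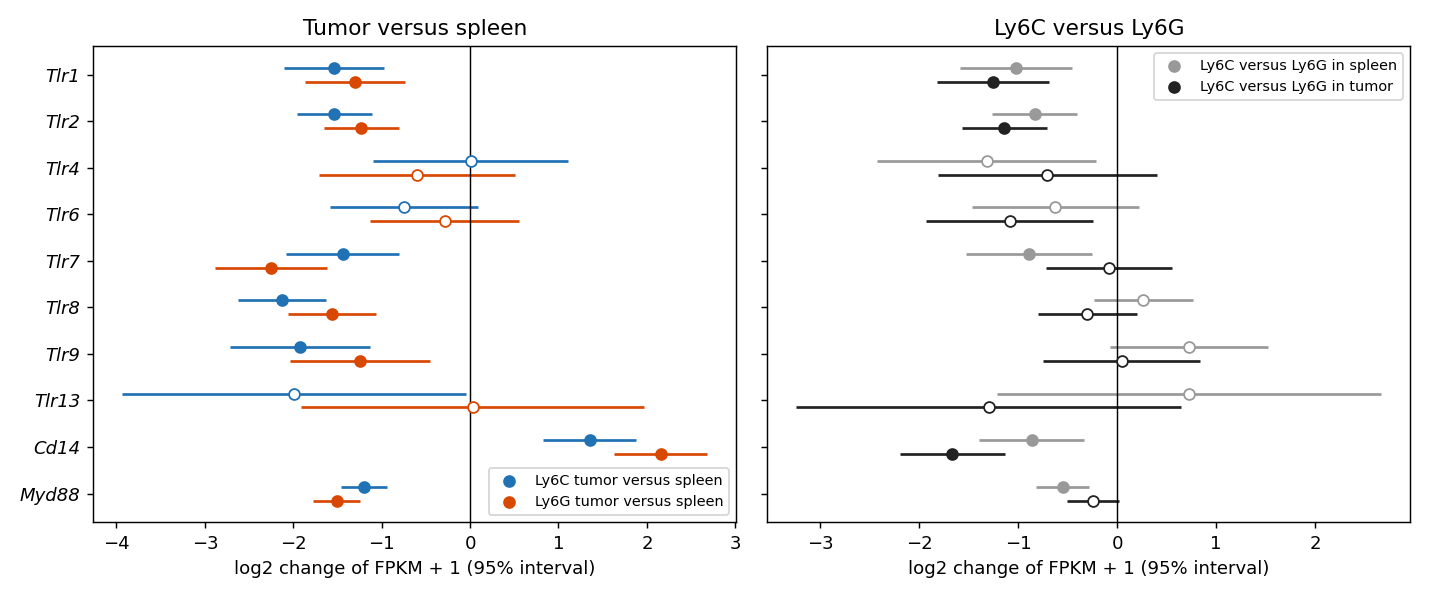
Log2 change of FPKM + 1 with its 95% interval for the 10 genes in the comparisons of tissue and of label; filled points have an adjusted p under 0.05. In tumor against spleen Cd14 lay right of 0 (1.35 and 2.15) and Tlr1, Tlr2, Tlr7, Tlr8, Tlr9 and Myd88 left of it in both labels. Rescaled to the pan-leukocyte genes those 6 changed sign, except Tlr7 in Ly6G. The changed values of Tlr8 in both labels, Tlr7 in Ly6C and Tlr9 in Ly6G did not pass.

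Between the labels, each of the 10 genes that passed in this model was lower in Ly6C; on the TPM scale Tlr9 passed in spleen as higher in Ly6C (0.99, adjusted p = 0.0449). In spleen 5 of the 10 genes were lower in Ly6C than in Ly6G (Tlr1, Tlr2, Tlr7, Cd14 and Myd88), beside 8.59% of all genes tested, and 0 were higher. In tumor 3 were lower (Tlr1, Tlr2 and Cd14), beside 8.7% of all genes, and 0 were higher. The median change of the 10 genes was -0.73 in spleen and -0.90 in tumor, and that of all genes was 0.11 and 0.04. Ly6g was 131 to 209 FPKM in Ly6C spleen, 591 to 717 in Ly6G spleen, 11.8 to 13.8 in Ly6C tumor and 31.5 to 54.1 in Ly6G tumor, so each labelled population held the transcript. It was lower in Ly6C libraries (-1.99 ± 0.22 in spleen, limma adjusted p = 0.000155, and -1.48 ± 0.22 in tumor, adjusted p = 0.00252), whereas Ly6c2 was 0.22 ± 0.17 (adjusted p = 0.38) and 0.07 ± 0.17 (adjusted p = 0.818). In spleen, 5 of 8 monocyte markers were higher and all 8 B cell markers lower in Ly6C, and in tumor 15 of 20 pan-leukocyte markers and 9 of 12 neutrophil markers were lower in Ly6C. The part of these markers in the label differences was not tested. After rescaling to the pan-leukocyte genes none of the 8 calls was kept, and only Myd88 and Tlr9 in tumor passed, both higher in Ly6C (0.85 and 0.92). But in tumor that rescaling called 10530 of 15456 genes higher and 161 lower in Ly6C. The median of all genes was then 1.002, above the values of Myd88 and Tlr9, so their rises were not particular to the members.

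The tissue change itself was compared between labels by the interaction term. None of the 10 genes passed in limma, beside 21.8% of all genes tested, and 1 was under an unadjusted p of 0.05. That gene was Cd14, whose rise was smaller in Ly6C by -0.80 ± 0.34 (adjusted p = 0.114). It passed under 4 alternatives, among them rescaling to an equal sum (-1.25, adjusted p = 0.0111). For Tlr7 the difference was 0.81 ± 0.41 (adjusted p = 0.18), and 1.23 (adjusted p = 0.00494) without Ly6C spleen replicate 2, and it also passed with quantile normalization (1.03, adjusted p = 0.0466) and array weights (1.25, adjusted p = 0.00707). For the other 8 genes the adjusted p was between 0.223 and 0.679. Of these, Tlr2 passed on the TPM scale (-0.74, adjusted p = 0.0486) and Myd88 with median-of-ratios factors (0.54, adjusted p = 0.0445).

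Set against the pan-leukocyte genes library by library, the 10 genes fell into separate patterns. The log2 ratio of Cd14 to their geometric mean was between 0.13 and 0.69 in Ly6C spleen and between 5.48 and 5.82 in Ly6C tumor, and between 1.06 and 1.37 in Ly6G spleen and between 6.08 and 6.38 in Ly6G tumor. For Tlr2 it was -2.45 to -2.28 in Ly6C spleen and -1.78 to -1.47 in Ly6G spleen, while in tumor both labels lay between -0.25 and 0.16. For Tlr1 the tumor libraries lay between -2.12 and -1.22 and the spleen libraries between -4.25 and -2.55. Tlr8 overlapped between the tissues in both labels, and Tlr7 lay lower in Ly6G tumor (-6.01 to -5.62) than in Ly6G spleen (-5.08 to -4.31).

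**Figure D4:**
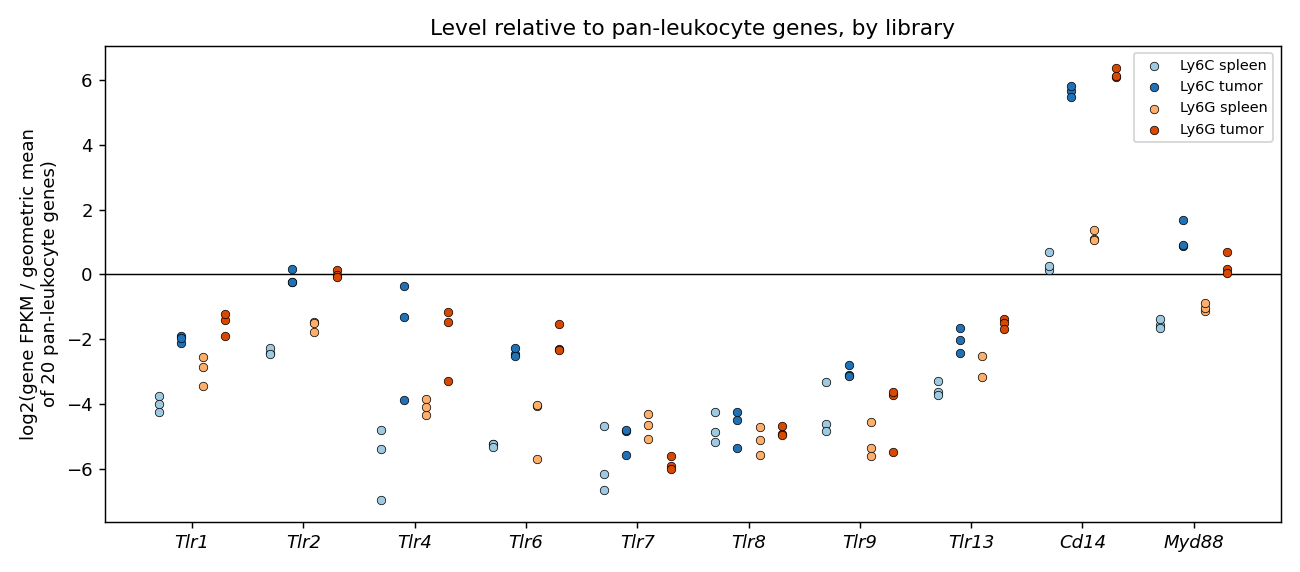
Log2 ratio of each gene to the 20 pan-leukocyte genes (their geometric mean) of the same library, by label and tissue (Tlr13 of Ly6G spleen replicate 1 is left out as under 0.01 FPKM). On this scale Tlr1, Tlr2, Tlr4, Tlr6, Tlr13, Cd14 and Myd88 lay higher in all tumor libraries of either label than in its spleen libraries. Tlr9 did so in Ly6C only. Of the genes higher in both labels, Tlr1, Tlr2 and Myd88 fell per FPKM, Cd14 rose, and Tlr4, Tlr6 and Tlr13 did not pass. Tlr7 of Ly6G lay lower in tumor on both scales. Rescaling to the pan-leukocyte genes called 14538 of 15456 genes higher in Ly6C tumor and 14171 in Ly6G tumor, so lying higher was not particular to the members.

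The promoters of the members that fell together are shown with the motif letters they hold. Of the 10 genes, 7 had a promoter entry in RefSeq (GRCm38.p6), 9 windows of 250 bases before the annotated start in all. The second window of Tlr1, the first of Tlr6 and that of Myd88 lay wholly inside the GENCODE gene, and the Myd88 window held none of the motifs below. GAGGAA, the core letters of sites of the myeloid factor PU.1, was in 4 of the 9 windows, and in 23.25% of 32851 windows of that length. These 4 belonged to Tlr1, Tlr8, Tlr9 and Tlr13. The C/EBP letters TTGCNNAA were in 2 of the 9 windows (9.564% of all windows) and CCAAT in 2 (33.85%). The NF-kappaB-like letters GGGNNTTCC were in 1 (4.977%) and the 10-letter NF-kappaB-like motif, which has 1 more free base in the middle, in 2 (4.648%); matches of the last pair overlap one another in Tlr2. Both strands were searched, and a match describes letters only. The stretches before the annotated gene are printed 5′ to 3′ on the gene's strand for 4 genes that fell in tumor per FPKM, with GAGGAA or its reverse complement in capitals for Tlr1 (chr5:64933564-64933808, minus), Tlr8 (chrX:167264330-167264579, minus) and Tlr9 (chr9:106222348-106222597, plus), and the overlapping NF-kappaB-like letters in capitals for Tlr2 (chr3:83841768-83841858, minus).
Tlr1: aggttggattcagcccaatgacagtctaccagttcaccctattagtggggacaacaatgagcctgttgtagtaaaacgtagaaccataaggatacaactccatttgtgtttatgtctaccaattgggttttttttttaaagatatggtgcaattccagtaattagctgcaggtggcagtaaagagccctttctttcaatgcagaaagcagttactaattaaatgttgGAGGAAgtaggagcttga
Tlr8: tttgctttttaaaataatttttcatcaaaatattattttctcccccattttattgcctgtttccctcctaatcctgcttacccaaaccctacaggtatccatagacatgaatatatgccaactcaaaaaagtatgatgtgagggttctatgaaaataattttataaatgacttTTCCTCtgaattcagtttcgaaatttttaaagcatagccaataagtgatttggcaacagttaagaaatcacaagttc
Tlr9: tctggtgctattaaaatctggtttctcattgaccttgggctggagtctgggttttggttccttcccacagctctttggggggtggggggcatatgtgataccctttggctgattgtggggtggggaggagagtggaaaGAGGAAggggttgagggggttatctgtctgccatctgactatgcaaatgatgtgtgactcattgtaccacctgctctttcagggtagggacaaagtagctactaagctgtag
Tlr2: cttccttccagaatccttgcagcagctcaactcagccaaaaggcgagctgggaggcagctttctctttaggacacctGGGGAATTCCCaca

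Levels of the members went together to different degrees over the 12 libraries. Pearson's r of log2(FPKM + 1) was 0.96 between Tlr1 and Tlr2, 0.95 between Tlr7 and Myd88, 0.87 between Tlr8 and Tlr9, and between -0.72 and 0.18 for Cd14 with each of the other 9. The 12 libraries share 4 group means, so these are descriptions. The gene most like Tlr2 was Tnfsf14 (r = 0.994). Tlr9 was most like Ctss (r = 0.988), an endosomal protease, and Csf1r (r = 0.981). Cd14 was most like Basp1 (r = 0.991) and Il1rn (r = 0.981), the interleukin-1 receptor antagonist. The likeness was highest for Tlr1 with Rhoh (r = 0.984), Tlr6 with Ubap1 (r = 0.942), Tlr7 with Slc45a3 (r = 0.981), Tlr8 with Tspan5 (r = 0.989), Tlr13 with Sirt1 (r = 0.870) and Myd88 with Fam32a (r = 0.994), all over 12 libraries. For Tlr4 no gene of 11001 went above Uros (r = 0.703).

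Accessory genes encode proteins that help the receptors fold, travel and bind. Of 11, 6 fell, 0 rose and 5 did not pass in Ly6C tumor, beside 30.5% lower and 46.2% higher of all genes tested. In Ly6G tumor 6 fell, 0 rose and 5 did not pass, beside 24.7% and 51.5%. Unc93b1, which escorts the endosomal receptors, went from 143 ± 29.3 to 27.0 ± 4.36 FPKM in Ly6C (-2.36 ± 0.20, limma adjusted p = 5.05e-07) and from 141 ± 35 to 33.2 ± 3.99 in Ly6G (-2.04 ± 0.20, adjusted p = 1.96e-06), and turned to 1.51 and 0.78 after rescaling to the pan-leukocyte genes. Nrros, a chaperone of myeloid cells, changed by -3.11 ± 0.31 and -2.0 ± 0.31, and 0.53 and 0.72 after that rescaling. Ly86, the partner of the TLR4-like protein Cd180, changed by -2.40 ± 0.36 and -2.58 ± 0.36, and by 0.61 in Ly6C after it. Slc15a3, an endosomal peptide transporter, passed in neither label (-0.22 ± 0.26 and 0.52 ± 0.26). Of the TLR genes outside the 10, Tlr5, the flagellin receptor, fell in both labels (-0.82 ± 0.20 and -0.80 ± 0.20, and 1.08 and 0.70 after rescaling), and Tlr3, Tlr11 and Tlr12 stayed below the filter.

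Of 21 adaptors, kinases and transcription factors downstream, 12 fell and 2 rose in Ly6C tumor (all genes: 30.5% and 46.2%), and 7 fell and 5 rose in Ly6G tumor (all genes: 24.7% and 51.5%). The kinase pair next to Myd88 parted: Irak4 changed by -2.05 ± 0.12 in Ly6C and -1.85 ± 0.12 in Ly6G, while Irak1 changed by 0.98 ± 0.13 and 1.76 ± 0.13. Irak4 was 9.06 to 10.9 FPKM in the spleen libraries and 1.38 to 2.38 in the tumor libraries, and Irak1 6.05 to 14.6 and 21.8 to 27.8, with no overlap in either gene. Rescaled to the pan-leukocyte genes Irak4 turned to 1.10 and 0.45. Irf5, a factor downstream of the endosomal receptors, fell in Ly6C (-2.34 ± 0.38) and did not pass in Ly6G (-0.71 ± 0.38), and after that rescaling it was 1.2 and 1.74. Tab2, a partner of the kinase TAK1, fell by similar sizes in both (-0.64 ± 0.12 and -0.62 ± 0.12), and turned to 3.05 and 2.07.

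Of 8 tested genes that restrain the pathway, 3 rose and 5 fell in Ly6C tumor (all genes: 46.2% and 30.5%), and 3 rose and 4 fell in Ly6G tumor (all genes: 51.5% and 24.7%). Tnfaip3, which encodes the ubiquitin-editing enzyme A20, was 7.47 ± 1.76 FPKM in Ly6C spleen and 76.2 ± 10.8 in Ly6C tumor, and 3.80 ± 1.88 and 148 ± 36.7 in the Ly6G groups (3.20 ± 0.27 and 4.99 ± 0.27). Tnip1, its binding partner, rose by 1.09 ± 0.15 and 1.34 ± 0.15. Irak3, an inactive kinase that blocks the receptor complex, fell by 2.53 and by 0.78 on the log2 scale (SE 0.19), and was 0.79 and 1.77 after rescaling to the pan-leukocyte genes. Tollip fell in Ly6C (-1.01 ± 0.09) and did not pass in Ly6G (-0.04 ± 0.09), and was 2.69 and 2.58 after that rescaling.

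Genes that TLR signals are known to induce went the other way from the receptors. Of 13 tested, 12 rose and 1 fell in Ly6C tumor (median 2.58), beside 46.2% higher of all genes, and 13 rose in Ly6G tumor (median 3.22), beside 51.5%. Cxcl1, a neutrophil-attracting chemokine, was 0.0282 to 0.0968 FPKM in the spleen libraries and 167 to 418 FPKM in the tumor libraries. Nfkbia, the inhibitor that NF-kappaB induces against itself, was 76.0 to 107 FPKM in the spleen libraries and 1171 to 1852 in the tumor libraries. Il1b, which encodes interleukin-1 beta, went from 35.3 ± 13.5 to 274 ± 62.9 FPKM in Ly6C and from 408 ± 239 to 933 ± 278 in Ly6G (2.97 ± 0.39 and 1.30 ± 0.39). Tnf was the gene that fell in Ly6C (-1.57 ± 0.14) while it rose in Ly6G (0.67 ± 0.14), and it was 2.07 in Ly6C after rescaling to the pan-leukocyte genes. Markers of other cells rose in the same libraries (Krt8 and Krt18 of 7 keratin and epithelial markers, as above; 5 of 7 fibroblast markers in Ly6C and 7 of 7 in Ly6G), and their part was not tested.

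Of 5 tested genes for proteins reported as endogenous TLR ligands, 1 rose and 2 fell in Ly6C tumor, and 2 rose and 2 fell in Ly6G tumor, counts too small to set against the shares of all genes (46.2% higher and 30.5% lower, and 51.5% and 24.7%). S100a8 and S100a9, the calprotectin subunits, were the 2 that fell: S100a8 was 23830 ± 6704 FPKM in Ly6C spleen and 629 ± 193 in Ly6C tumor, and 44726 ± 11581 and 2001 ± 650 in the Ly6G groups. Bgn, the matrix proteoglycan biglycan, rose by 1.49 ± 0.24 and 1.77 ± 0.24. Hmgb1 passed in neither Ly6C (0.03 ± 0.09, limma adjusted p = 0.764) nor Ly6G (0.21 ± 0.09, adjusted p = 0.053).

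**Figure D5:**
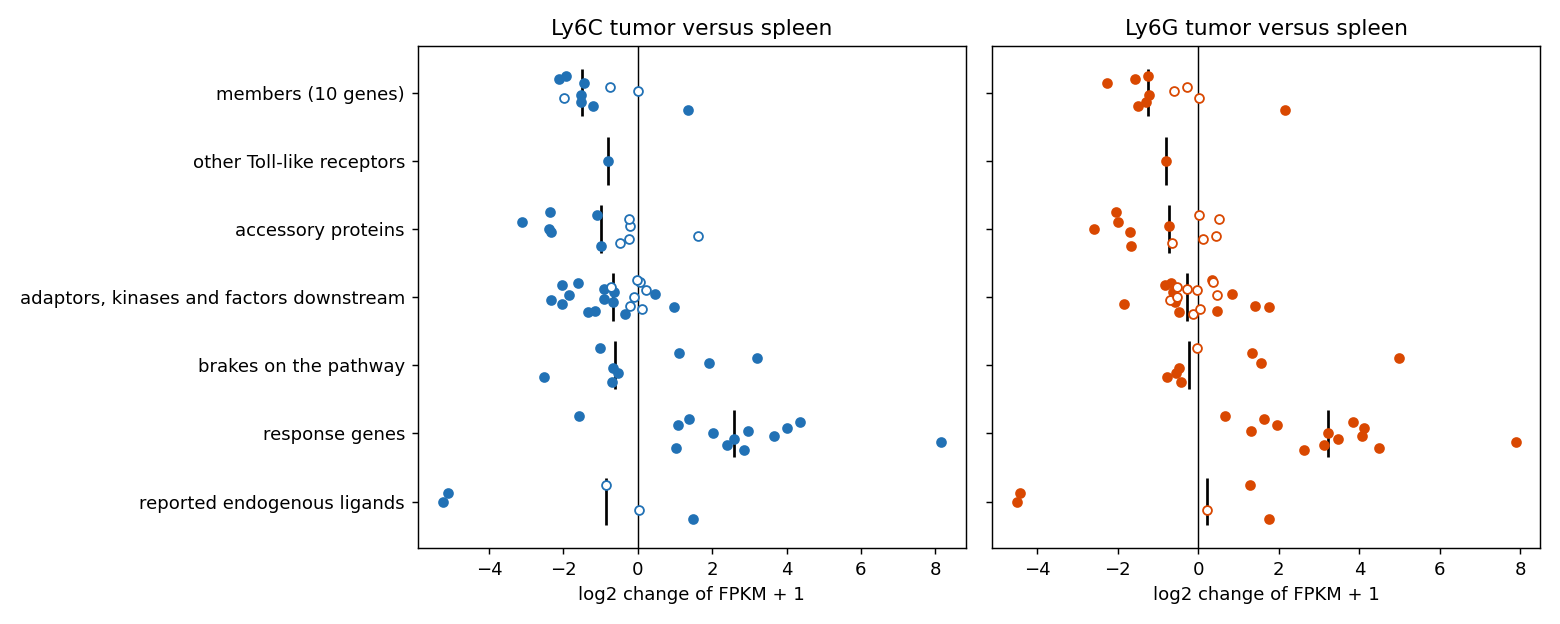
Log2 change of FPKM + 1 in tumor against spleen for the 10 genes and for each pathway list, Ly6C and Ly6G panels; each point is a gene, filled where the adjusted p is under 0.05, and the bar is the median. The 10 genes had medians of -1.49 and -1.24 and the response genes 2.58 and 3.22; after rescaling to the pan-leukocyte genes most of the falls on this plot turn.

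Between labels, 22.1% of all genes tested were higher and 8.59% lower in Ly6C than in Ly6G in spleen, and 5.8% higher and 8.7% lower in tumor. Of the response genes, 6 of 13 were lower, 2 higher and 5 did not pass in spleen, and 10 of 13 were lower and 0 higher in tumor. The downstream list had 6 of 21 genes higher and 0 lower in Ly6C spleen, and 0 higher and 5 lower in Ly6C tumor. The brakes had 2 of 8 higher in spleen and 3 of 8 lower in tumor, the accessory genes 2 of 11 higher and 1 lower in spleen and 1 lower in tumor, and the ligand genes 2 of 5 higher and 1 lower in spleen and 1 higher and 2 lower in tumor. Il1b was among the genes lower in Ly6C in both tissues (-3.42 ± 0.39, limma adjusted p = 0.000187, and -1.75 ± 0.39, adjusted p = 0.0159).

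Libraries summed to 331681 to 449309 FPKM and held 10379 to 12337 genes at 1 FPKM or more. Mitochondrially encoded genes took 1.45% to 11.4% of a library, most in Ly6G tumor replicate 3 and Ly6C tumor replicate 3. Of these genes 10 of 13 rose in Ly6C tumor, beside 46.2% of all genes tested. In Ly6G tumor 6 of 13 rose, near the 51.5% of all genes. S100a8 and S100a9 together took 0.332% to 30.8%. Ly6G spleen replicate 1, the library at almost 0 for Tlr13, also stood apart for Retnlg (554 FPKM against 6436 and 6070) and had the highest share of assembled loci (1.04%).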

How the data were processed

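The 12 mouse samples (Ly6C or Ly6G, from spleen or tumor, 3 of each) were total RNA from a column kit, read in pairs on an Illumina instrument, per the labels' protocols. The deposited matrix holds FPKM per gene and library, computed by the authors. Per the submitters' processing notes the tools included featureCounts 1.5.0-p3 and HISAT2 2.0.5 and the build was GRCm38, with no role stated. Not given in the sources used here: which tool computed FPKM, its annotation, and how it treated strand and fragments that match several genes. Of 54674 rows, 570 assembled loci that name no gene were left out, and symbols for the others came from GENCODE M21 (GRCm38), which lacked 66 identifiers. Depth is unknown: only 24.4% to 27.1% of low values lay within 0.05 of a whole step, so counts were not recovered.

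A gene was kept if 3 or more libraries reached 1 FPKM (13610 genes). One model of 4 group means was fitted with limma 3.58.1 (R 4.3.3; variance trend, 8 residual and 3.4 prior degrees of freedom) on log2(FPKM + 1), with two-sided tests and Benjamini-Hochberg adjustment over all genes at 0.05, and was tested on simulated data. Nothing ties a replicate number to an animal, so p-values measure only the spread between these samples. The rule for named genes took all 10 members, every other TLR, of each pathway list the largest passing rise and fall in each label and up to 2 more genes of highest mean, for each member the 2 genes of highest Pearson r, and of each marker list up to 3 genes of highest mean; marker and other genes named outside it were picked after their values were seen. Pearson r was taken over 12 libraries among 11001 genes. The gene of highest r is given for each member and the other gene for some members only; 1 is not reported here. The members and lists were chosen with earlier results of these data known. The 26 alternatives were other pseudocounts (0.1 and 5), filters (none and 5 FPKM), scalings (equal sum, that is the TPM scale; median-of-ratios; quantile; equal sum without S100a8 and S100a9; pan-leukocyte genes), only the groups compared, a replicate block, no variance trend, array weights, no libraries of highest mitochondrial share, and each library left out. Promoters came from RefSeq (GRCm38.p6).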

Additional observations from a re-analysis of the deposited data

Results flagged for a closer look

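None of the 10 genes passed the test of whether its tissue change differed between the labels. Of the 22 pathway genes named by the rule, 7 did, beside 21.8% of all genes tested, by the interaction term of the limma model (Ly6C change minus Ly6G change, log2, n = 3 per group). The cause was not tested for any of them. Groups of 3 were too small to test a single library as standing apart.

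The log2 change of Pik3ap1, an adaptor that links TLRs to phosphoinositide 3-kinase, was -1.84 in Ly6C and 0.47 in Ly6G, a difference of -2.31 ± 0.40 (limma adjusted p = 0.00302). For Tnf, the inflammatory cytokine, the changes were -1.57 and 0.67, and the difference -2.25 ± 0.20 (limma adjusted p = 0.000186). The log2 change of Tnfaip3, the ubiquitin-editing enzyme A20, was 3.20 in Ly6C and 4.99 in Ly6G, a difference of -1.80 ± 0.38 (limma adjusted p = 0.00733). For Irak3, a kinase relative that restrains the receptor complex, the changes were -2.53 and -0.78, and the difference -1.75 ± 0.28 (limma adjusted p = 0.00191). The log2 change of Tollip, a Toll-interacting adaptor, was -1.01 in Ly6C and -0.042 in Ly6G, a difference of -0.97 ± 0.13 (limma adjusted p = 0.00105). For Irak1, a kinase recruited after Myd88, the changes were 0.98 and 1.76, and the difference -0.79 ± 0.19 (limma adjusted p = 0.0129). The log2 change of Il1b, the cytokine interleukin-1 beta, was 2.97 in Ly6C and 1.30 in Ly6G, a difference of 1.67 ± 0.55 (limma adjusted p = 0.04996). The changes of Pik3ap1 and Tollip in Ly6G did not pass on their own.

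The Il1b difference lay at the threshold and passed under 12 of the 26 alternatives. The other 6 differences kept their direction and passed under 25, the exception being the pan-leukocyte rescaling, where they were -1.29 (Pik3ap1), -1.26 (Tnf), -0.47 (Tnfaip3), -0.98 (Irak3), 0.11 (Tollip) and 0.43 (Irak1).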

How the results depend on the processing

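Cd14 rose in both labels under all 26 alternatives. Across every other alternative than the pan-leukocyte rescaling, Tlr1, Tlr2, Tlr7, Tlr8, Tlr9 and Myd88 fell in both labels wherever they were tested. Rescaling every library by the 20 pan-leukocyte genes, which moved the median of all genes to 3.04 (Ly6C) and 2.17 (Ly6G), turned the log2 change in Ly6C tumor against spleen to Tlr1 1.67, Tlr2 2.15, Tlr6 2.08, Tlr7 0.32, Tlr8 0.052, Tlr9 0.93, Tlr13 1.28 and Myd88 2.61. In Ly6G tumor against spleen it turned to Tlr1 1.28, Tlr2 1.53, Tlr4 1.79, Tlr6 1.97, Tlr8 0.15, Tlr9 0.59 and Myd88 1.28. Ly6C against Ly6G in tumor turned to 0.85 for Myd88, beside a median of 1.002 over all genes. Without Ly6G spleen replicate 1, Tlr13 turned to -1.43 in Ly6G tumor against spleen and to -0.73 in Ly6C against Ly6G in spleen; with each library left out in turn these values ran to 0.92 and 1.62.

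The pathway genes were run under the same alternatives after the data were seen. The pan-leukocyte rescaling turned them in Ly6C to Irak3 0.79, Irak4 1.10, Irf5 1.2, Ly86 0.61, Nrros 0.53, Pik3ap1 1.91, Slc15a3 3.47, Tab2 3.05, Tlr5 1.08, Tnf 2.07, Tollip 2.69 and Unc93b1 1.51, in Ly6G to Irak3 1.77, Irak4 0.45, Irf5 1.74, Nrros 0.72, Tab2 2.07, Tlr5 0.70, Tollip 2.58 and Unc93b1 0.78, and in the interaction to Irak1 0.43 and Tollip 0.11. Hmgb1 turned to -0.24 (Ly6C, median-of-ratios factors), -0.34 (Ly6C, equal sum without S100a8 and S100a9) and -0.28 (Ly6G, median-of-ratios factors), and Tollip in Ly6G to 0.28 on the TPM scale (neither passed in these labels in the model reported above). The cause was not tested.

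Of the members, 5 passed between labels in spleen; the count was 3 without a filter, 3 on the TPM scale (Tlr7, Cd14 and Myd88 lost, and Tlr9 gained as higher in Ly6C) and 0 under the pan-leukocyte rescaling, and 3 to 6 when each library was left out in turn. In tumor it was 3, and 3 to 5 with a library left out (5 without Ly6G spleen replicate 1). In the interaction it was 0, and 2 with an equal sum (TPM scale), 1 under median-of-ratios factors, 2 with quantile normalization, 1 with an equal sum without S100a8 and S100a9, 2 with array weights, and 0 to 1 with a library left out (1 without Ly6C spleen replicate 2). Between tissues the count was 7 in each label and 7 to 9 with a library left out. The cause was not tested. Among all genes called, the share that was higher was 60.2% in Ly6C tumor against spleen (48.2% to 97.7% over the 5 other scalings), 67.6% in Ly6G (49.1% to 97.6%), 72.0% between labels in spleen (46.7% to 90.7%), 40.02% in tumor (6.95% to 98.5%) and 27.6% in the interaction (5.63% to 98.2%).

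With the replicate number as a block (replicate block), the counts were 8, 7, 4, 3 and 0 in the order Ly6C tissue, Ly6G tissue, spleen, tumor and interaction, Tlr13 in Ly6C being gained (adjusted p = 0.0445) and Tlr7 in spleen lost (adjusted p = 0.0588). Same-numbered libraries did not deviate together (median r = 0.02, -0.36 to 0.28 over 18 pairs), and no label says that a number marks an animal. Fragment counts are not analysed here, so levels near 0 carry no counting interval.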
